A study of Rattus norvegicus with 2 samples.

Results

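The genes described here carry glucose into the cell and through glycolysis: the transporter Slc2a1, the enzymes Gpi, Aldoa, Aldoc, Gapdh, Pgk1, Pgam2 and Ldha, and the glycogen branching enzyme Gbe1. These 9 genes were found by Entrez gene identifier among the 7803 usable identifiers in the deposited files. All 9 averaged 1 FPKM or more over both libraries, the level from which a gene is called measured here, as did 4366 genes in all. FPKM counts the sequenced fragments of a gene, scaled by the length of its transcript and by the size of the library. The cells were H9c2, an established rat line of embryonic cardiomyoblasts, held in serum-free DMEM for 12 h after growth in medium with fetal bovine serum. The control library came from cells at 0.9 mM phosphate and the other from cells at 2.5 mM phosphate, with 1 library for each. No difference below therefore has a replicate check or a test, and the spread between cultures is unknown. In bulk RNA of this kind, a change in the share of cells that make a transcript and a change per cell cannot be told apart.

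Glycolysis turns glucose into pyruvate in the cytosol and yields ATP without oxygen, and lactate dehydrogenase then regenerates the NAD+ that the pathway uses. Many of its enzymes exist as isoforms encoded by separate genes, with muscle, liver and brain forms that differ in tissue and in kinetics. Transcription of the glucose transporter and of several glycolytic enzymes is a classical output of hypoxia-inducible factor, which binds a short DNA core in the promoters of its targets. In the embryonic heart glycolysis is a major source of ATP, whereas the adult heart relies largely on fatty acids.

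The promoters of the genes are shown because the genes that stood higher at high phosphate include textbook targets of that factor. The part of the factor in these differences was not tested. RefSeq windows on the assembly GRCr8 matched 8 of the 9 genes, at 10 transcription starts (Aldoa has 3), and Pgk1 was not matched. The first 250 bases before each start were searched on both strands for the cores ACGTG and GCGTG, whose matches may share bases, as in the E-box CACGTG, which reads ACGTG on both strands. In the sequences below, written 5′ to 3′ in the direction of the gene and ending at the base before the start, capitals mark every match to either core on either strand. Slc2a1 lies at chr5:138002272-138002521 on the plus strand, Aldoc at chr10:63715294-63715543 (plus), Gapdh at chr4:159652468-159652717 (minus), Ldha at chr1:106507842-106508091 (plus), Gbe1 at chr11:22181026-22181275 (plus) and Pgam2 at chr14:84897875-84898124 (minus). The first 5 hold matches, and Pgam2 is shown as the gene whose listed values were nearly equal. Gpi, which was also higher at high phosphate, held no match and is not shown, nor are the 3 windows of Aldoa.
Slc2a1: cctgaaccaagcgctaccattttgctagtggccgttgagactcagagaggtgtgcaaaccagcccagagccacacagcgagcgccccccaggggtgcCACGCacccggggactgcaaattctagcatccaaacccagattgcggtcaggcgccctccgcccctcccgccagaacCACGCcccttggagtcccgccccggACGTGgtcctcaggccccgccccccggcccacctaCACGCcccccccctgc
Aldoc: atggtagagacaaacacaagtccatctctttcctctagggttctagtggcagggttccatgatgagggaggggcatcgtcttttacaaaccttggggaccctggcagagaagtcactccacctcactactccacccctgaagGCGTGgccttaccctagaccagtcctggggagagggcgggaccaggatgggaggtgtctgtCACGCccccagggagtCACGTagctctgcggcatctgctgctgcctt
Gapdh: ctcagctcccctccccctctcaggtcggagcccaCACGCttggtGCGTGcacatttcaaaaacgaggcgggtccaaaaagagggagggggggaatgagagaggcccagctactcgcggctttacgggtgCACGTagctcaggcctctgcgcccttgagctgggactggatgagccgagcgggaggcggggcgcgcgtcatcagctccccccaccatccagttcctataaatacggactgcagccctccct
Ldha: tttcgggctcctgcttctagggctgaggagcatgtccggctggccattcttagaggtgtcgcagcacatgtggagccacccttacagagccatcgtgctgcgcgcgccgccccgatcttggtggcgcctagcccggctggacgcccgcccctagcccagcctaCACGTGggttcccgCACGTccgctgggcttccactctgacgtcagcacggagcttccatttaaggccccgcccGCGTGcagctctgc
Gbe1: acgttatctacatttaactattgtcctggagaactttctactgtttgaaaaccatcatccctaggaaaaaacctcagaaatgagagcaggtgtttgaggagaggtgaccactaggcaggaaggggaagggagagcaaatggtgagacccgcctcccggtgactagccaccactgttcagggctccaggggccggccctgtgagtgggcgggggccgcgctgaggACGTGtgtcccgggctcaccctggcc
Pgam2: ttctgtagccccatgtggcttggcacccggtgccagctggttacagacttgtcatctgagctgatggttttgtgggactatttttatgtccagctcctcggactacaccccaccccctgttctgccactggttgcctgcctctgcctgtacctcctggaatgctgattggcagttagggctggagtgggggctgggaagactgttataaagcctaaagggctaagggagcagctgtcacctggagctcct

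Slc2a1 and Ldha each had 4 match positions, Aldoc and Gapdh 3, and Gbe1 1. The Ldha window holds the palindrome CACGTG, read as ACGTG on both strands, with first bases 87 and 86 bases before the start, and a further ACGTG on the reverse strand at 73. In Slc2a1 the ACGTG lay 51 bases before the start, in Gbe1 26 and in Aldoc, on the reverse strand, 31. A single window of the 3 for Aldoa held 1 match, whereas the Gpi and Pgam2 windows held none. With the 50 bases after the start included, Gpi also held 1. Of the 8 genes, 6 held a match to either core (75%), against 60.4% of the 3609 measured genes with a window, 39.6% of all 27457 genes and 51.6% of the 62 genes with a window that were at least 2-fold higher at high phosphate. For ACGTG alone, 6 of the 10 windows held a match, against 16.6% of all 33469 windows and 24.6% of the 3770 windows of measured genes. Among the 62 windows of genes at least 2-fold higher at high phosphate, the share with ACGTG was 24.2%. For GCGTG alone it was 4 of 10 windows, against 25.9%, 46.7% and 45.2% in the same order. Both cores contain a CpG, and windows of measured genes held a median of 16 CpG against 5 in all windows, so the measured genes are the closer comparison. A match is a run of letters and does not show that a factor was bound.

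**Figure D1:**
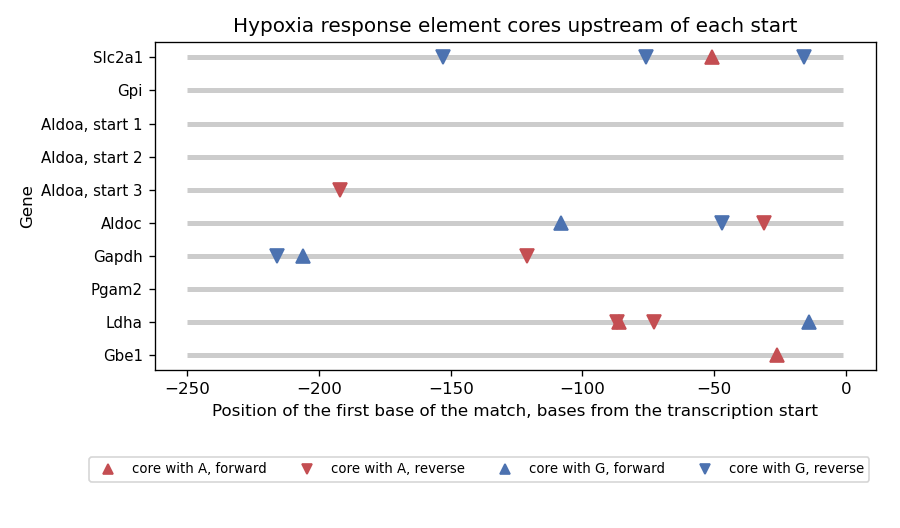
Matches to the 2 cores upstream of the starts of the 8 genes with a window. The horizontal axis gives the first base of each match in bases from the transcription start, each grey bar is 1 window of 250 bases, red and blue mark the core that begins with A or with G, and up and down triangles mark the forward and reverse strand. Slc2a1 and Ldha carry 4 match positions each, and Gpi and Pgam2 carry none.

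The listed FPKM of all 8039 entries added up to 307622 under control and 346857 under high phosphate, a ratio of 1.13. The number of reads is unknown, since the files hold no counts. Of the cell type markers, 3 of 10 cardiomyocyte genes were listed, with Myh7 and Ryr2 at 0 in both libraries and Nppa at 0.21 and 0.23 FPKM, and the other 7 were not analysed here. Of the myoblast markers, 4 of 6 were listed, with Des at 128.5 and 153 FPKM and Myod1 at 6.11 and 1.59 FPKM. Myog was at 0.13 and 0.06 FPKM and Chrna1 at 0.45 and 0.21 FPKM. The 6 listed fibroblast markers summed to 4018 and 4420 FPKM, most of it S100a4 with 3291 and 3249 FPKM, and Pdgfra was at 0 in both. The other 4 were higher at high phosphate, with 489 and 844 FPKM for Col3a1, 232 and 317 FPKM for Thy1, 5.11 and 8.63 FPKM for Dcn and 0.79 and 1.8 FPKM for Col1a1. As log2((high phosphate FPKM + 1)/(control FPKM + 1)), the scale used for comparisons below, the 5 measured fibroblast markers had a median of 0.65, with 4 of 5 above 0. The 4 listed endothelial markers summed to 0.08 and 0.36 FPKM and the 3 listed macrophage markers to 1.06 and 1.47 FPKM, with Ptprc at 0 in both. The part of the myoblast markers in the differences below was not tested.

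Slc2a1 encodes GLUT1, the transporter that brings glucose into most cells at rest. It was listed at 60.2 FPKM under control phosphate and 167 FPKM under high phosphate, a listed ratio of 2.78. Among transporters it was already the most abundant of those listed, and its share of their summed FPKM was 83.1% in the control and 91.7% in high phosphate. The insulin-responsive transporter Slc2a4 was listed at 3.21 and 3.7 FPKM. Slc2a8, a transporter found largely inside the cell, had 8.43 and 11.0 FPKM. Both differed far less than Slc2a1, so the distance between GLUT1 and the other measured forms was wider at high phosphate. Slc2a5 and Slc2a9, which carry fructose and urate, were listed below 0.5 FPKM in both libraries.

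Once inside, glucose is phosphorylated by hexokinase and rearranged to fructose 6-phosphate by Gpi. Hexokinase 1, encoded by Hk1, was listed at 33.1 and 38.9 FPKM, while Hk3 was listed at 0 in both. The other hexokinase genes were not analysed here, so this step is seen only in part. Gpi was listed at 154 FPKM under control phosphate and 389 FPKM under high phosphate, a ratio of 2.52. The 2 steps on either side of hexokinase therefore differed by more than hexokinase 1 itself: Slc2a1 was listed at 1.82 times the FPKM of Hk1 in the control and 4.30 times in high phosphate. Ratios such as this one compare genes within a library, so no scaling between libraries enters them. Of the phosphofructokinase genes and their regulators, Pfkfb2 was the 1 listed, at 1.06 and 0.01 FPKM, and the others were not analysed here.

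**Figure D2:**
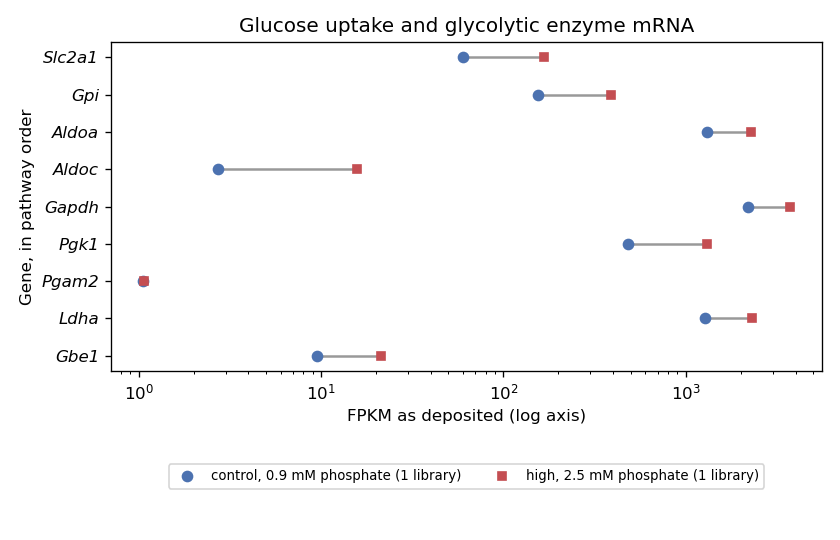
FPKM of the 9 genes in pathway order from top to bottom, with Gbe1 last, on a log axis. Circles are the control library and squares the high phosphate library, with 1 library each and no error bar, and the line joins the values of a gene. In 8 genes the square lies to the right, from 1.69 times the control for Gapdh to 5.80 times for Aldoc, and for Pgam2 the symbols coincide.

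Aldolase splits fructose 1,6-bisphosphate into triose phosphates. Its muscle form Aldoa was listed at 1315 FPKM under control phosphate and 2287 FPKM under high phosphate, a ratio of 1.74. The brain form Aldoc was listed at 2.71 and 15.7 FPKM, a ratio of 5.80 and the largest of the 9 genes. In FPKM the order of size is the other way round, since the difference was 972 FPKM for Aldoa and 13.0 FPKM for Aldoc. Aldoc made up 0.206% of the summed FPKM of Aldoa and Aldoc in the control and 0.682% in high phosphate, beside 99.8% and 99.3% for Aldoa.

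Gapdh oxidises glyceraldehyde 3-phosphate and was the most abundant of the 9 genes, at 2197 FPKM under control phosphate and 3710.05 FPKM under high phosphate. Its ratio of 1.69 was the smallest after that of Pgam2. Phosphoglycerate kinase, encoded by Pgk1, makes the first ATP of the pathway and was listed at 481 and 1307 FPKM, a ratio of 2.72. The FPKM of Pgk1 thus came to 21.9% of that of Gapdh in the control and 35.2% in high phosphate. By contrast, Aldoa stayed close to a fixed proportion of Gapdh, at 59.8% and 61.6%, and Ldha lay at 57.8% and 62.3%. The FPKM of Gpi was 7.02% and 10.5% of that of Gapdh. The testis form Pgk2, whose coding sequence is close to that of Pgk1, was listed at 1.34 and 2.19 FPKM. Gapdh, Pgk1, Aldoa and Ldha have processed copies elsewhere in rodent genomes, and the sources used here do not state how the authors assigned reads shared between copies.

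Pgam2, the muscle form of phosphoglycerate mutase, was listed at 1.06 FPKM under control phosphate and 1.07 FPKM under high phosphate. It is the 1 gene of the 9 whose values lay within 1% of each other, and it was near the lower limit of the genes measured. The ubiquitous form Pgam1 was not analysed here, so the mutase step is seen only through its minor form. Other steps of lower glycolysis are also poorly covered. Triose phosphate isomerase, Tpi1, was listed at 0.29 and 0.00 FPKM, enolase 1, Eno1, at 0.75 and 0.90 FPKM and the liver pyruvate kinase Pklr at 0.00 and 0.04 FPKM. Tpi1 and Eno1 serve every glycolytic cell, and Aldoa, Gapdh, Pgk1 and Ldha around them in the pathway were listed at 481 FPKM or more, so values near 0 in these files may be failed estimates and are given only as listed. The muscle pyruvate kinase gene Pkm was not analysed here.

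Ldha encodes the subunit of lactate dehydrogenase that favours the conversion of pyruvate to lactate. It was listed at 1269 FPKM under control phosphate and 2311 FPKM under high phosphate, a ratio of 1.82. Its level lay just below that of Aldoa in the control and just above it in high phosphate, at 0.97 and 1.01 times its FPKM. Set against Pdha1, a subunit of the pyruvate dehydrogenase complex that sends pyruvate into mitochondria, Ldha had 23.8 times its FPKM in the control and 48.9 times in high phosphate. The heart subunit gene Ldhb was not analysed here. Ldhd, which acts on D-lactate, was listed at 0.89 and 1.25 FPKM. For lactate export, the transporter Slc16a3 was listed at 0.01 and 0.05 FPKM, Slc16a7 at 0.11 and 0.05 FPKM, and Bsg, a chaperone of Slc16a3, at 2.5 and 3.88 FPKM.

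Gbe1 adds the branch points of glycogen and so belongs to glucose storage and not to its breakdown. It was listed at 9.49 FPKM under control phosphate and 21.3 FPKM under high phosphate, a ratio of 2.24. The muscle glycogen synthase Gys1, which lengthens the chains that Gbe1 branches, was listed at 17.4 and 42.6 FPKM, so Gbe1 came to 54.4% and 49.9% of its FPKM. Pgm1, the phosphoglucomutase that links glucose 6-phosphate to glycogen, was listed at 58.4 FPKM under control phosphate and at 1.71 times that value under high phosphate. The remaining measured genes of glycogen metabolism had closer values. The primer protein glycogenin, Gyg1, was listed at 33.5 and 32.55 FPKM, and the brain phosphorylase Pygb, which releases glucose from glycogen, at 20.1 and 22.4 FPKM. The lysosomal glucosidase Gaa had 29.5 and 33.5 FPKM and the glycogen-binding protein Stbd1 14.4 and 14.6 FPKM. The FPKM of Gbe1 was 47.3% of that of Pygb in the control and 95.0% in high phosphate.

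For comparison with all genes, the difference was expressed as log2((high phosphate FPKM + 1)/(control FPKM + 1)), which lowers the difference of genes with low values, and 2-fold on this scale was used as the threshold. All 9 genes had a log2 ratio above 0, with a median of 1.09, against a median of 0.00 and 50.5% above 0 over the 4366 measured genes. By the threshold 5 of the 9 were at least 2-fold higher (55.6%): Aldoc with a log2 ratio of 2.17, Slc2a1 with 1.46, Pgk1 with 1.44, Gpi with 1.33 and Gbe1 with 1.09. Over all measured genes the share at least 2-fold higher was 1.76% and the share at least 2-fold lower 0.87%. The other genes had log2 ratios of 0.86 for Ldha, 0.80 for Aldoa, 0.76 for Gapdh and 0.01 for Pgam2. The 5 measured fibroblast markers had a median of 0.65 on this scale, and their part in these differences was not tested. The genes were proposed with results of these data known, so their count describes them and is no independent evidence.

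The most abundant of the 9 genes had smaller ratios than the next 3. Gapdh, Aldoa and Ldha, the 3 with the highest FPKM in both libraries, lay between 1.69 and 1.82 in listed ratio, whereas Slc2a1, Gpi and Pgk1 lay between 2.52 and 2.78. Among the 453 genes that averaged 100 FPKM or more, 1.77% were at least 2-fold higher, 70.2% had a log2 ratio above 0 and the median was 0.15. By log2 ratio among these 453, Slc2a1 took rank 5, Pgk1 rank 6, Gpi rank 7, Ldha rank 12, Aldoa rank 16 and Gapdh rank 19. All 6 abundant genes of the set were therefore among the 19 highest ratios of their abundance class, including the 3 under 2-fold. Among all 4366 genes Aldoc took rank 10, Gbe1 rank 64 and Pgam2 rank 2170.

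**Figure D3:**
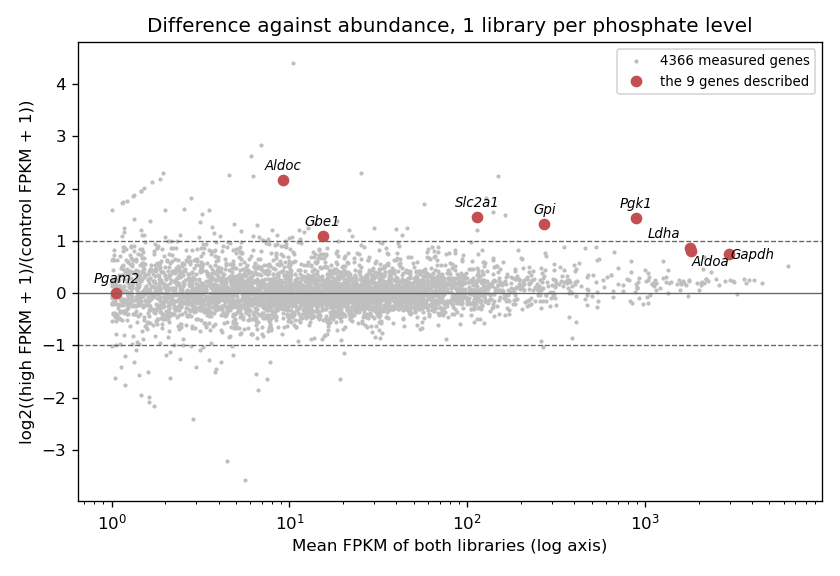
Log2 ratio of high phosphate to control, with 1 added to each FPKM, against the mean FPKM of both libraries on a log axis. Grey points are the 4366 measured genes, red points the 9 genes described, and dashed lines mark 2-fold. Of the red points 6 lie at or above a mean of 100 FPKM with log2 ratios from 0.76 to 1.46, and Pgam2 lies at 0.01 at the left edge.

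By level the genes kept nearly the same order in both libraries. From the highest, the control order was Gapdh, Aldoa, Ldha, Pgk1, Gpi, Slc2a1, Gbe1, Aldoc and Pgam2, and in high phosphate Ldha and Aldoa changed places. Without replicates it is unknown which neighbours differ beyond their spread. Among the 7803 genes, Gapdh stood at rank 14 by FPKM in the control and 7 in high phosphate, Pgk1 at 100 and 48, Gpi at 275 and 127 and Slc2a1 at 739 and 276. The 9 genes summed to 5489 FPKM under control phosphate and 10210 FPKM under high phosphate, or 1.78% and 2.94% of all listed FPKM. Gapdh, Aldoa and Ldha held 87.1% of that sum in the control and 81.4% in high phosphate. The 9 genes held 4721 of the 39235 FPKM by which the listed totals differed, or 12.0%. That total is a net difference, in which higher and lower genes offset each other, and it depends on the scaling of the libraries.

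The scaling of the libraries moved these values. When both were rescaled to the same sum of listed FPKM, the median over all measured genes shifted to a log2 ratio of -0.15, and 1.31% of genes were at least 2-fold higher and as many lower. Under that rescaling 4 of the 9 were at least 2-fold higher, with Gbe1 at a log2 ratio of 0.93, and 8 of 9 had a ratio above 0, with Pgam2 at -0.08. Slc2a1, Gpi, Aldoc and Pgk1 were at least 2-fold higher under every scaling and pseudocount tried. The share of all genes at least 2-fold higher was 1.67% at the same median ratio, 1.63% at the same upper quartile and 1.51% at the same sum without the 100 most abundant entries, and 5 of the 9 passed in each. It was 3.46% with a pseudocount of 0.1 and 2.54% with 0.5, again with 5 of 9. Without a filter on low values it was 1.22%, from a mean of 5 FPKM 1.27% and from 10 FPKM 1.06%, with 5 of 9, 5 of 8 and 4 of 7 genes. At a threshold of 1.5-fold 8 of the 9 passed against 7.21% of all genes, and at 3-fold 1 of the 9, Aldoc, against 0.573%.

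The other genes of glucose metabolism were taken from a list of 90 genes over the same pathway and its branches. Of these 46 were listed and 25 measured, with 14 above and 11 below 0, a median log2 ratio of 0.08, and 2 at least 2-fold higher (8%, against 1.76% of all genes): Gys1 with 1.24 and Pdk1 with 2.30. None was at least 2-fold lower. Between uptake and lactate, 5 of 34 other genes were measured, and all lay between 0.16 and 0.45: Slc2a4, Slc2a8, Hk1, Pgk2 and Ldhd. With the libraries brought to the same sum, the median of the 25 genes turned to -0.09, and it was -0.01 from a mean of 5 or of 10 FPKM.

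The measured pentose phosphate and gluconeogenic genes had log2 ratios below the 0.76 of Gapdh. In glycogen metabolism, by contrast, Gys1 with 1.24 and Pgm1 with 0.77 lay above it. In the pentose phosphate pathway, which makes NADPH and ribose, the 4 measured genes reported here lay below 0. The transaldolase Taldo1 was listed at 291 and 263 FPKM, Rpia at 20.6 and 18.5 FPKM and Pgls at 35.0 and 34.3 FPKM. The transketolase Tkt was listed at 2.23 and 0.64 FPKM, a log2 ratio of -0.98 at low values. The gluconeogenic enzyme Pck2 was listed at 18.2 and 24.2 FPKM and G6pc3 at 25.6 and 27.1 FPKM.

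At the entry of pyruvate into mitochondria, 6 of 7 measured genes lay below 0 and 1 far above. The exception was Pdk1, a kinase that switches pyruvate dehydrogenase off, at 7.84 and 42.5 FPKM. Its targets and partners differed little: Pdha1 was listed at 53.25 and 47.3 FPKM, Pdhb at 28.0 and 25.9 FPKM, Dlat at 25.1 and 22.35 FPKM, and the pyruvate carrier Mpc1 at 65.75 and 64.2 FPKM. The kinase Pdk2 had 13.9 and 13.5 FPKM and the phosphatase Pdp2 5.55 and 4.8 FPKM. All 6 log2 ratios lay between -0.18 and -0.03.

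**Figure D4:**
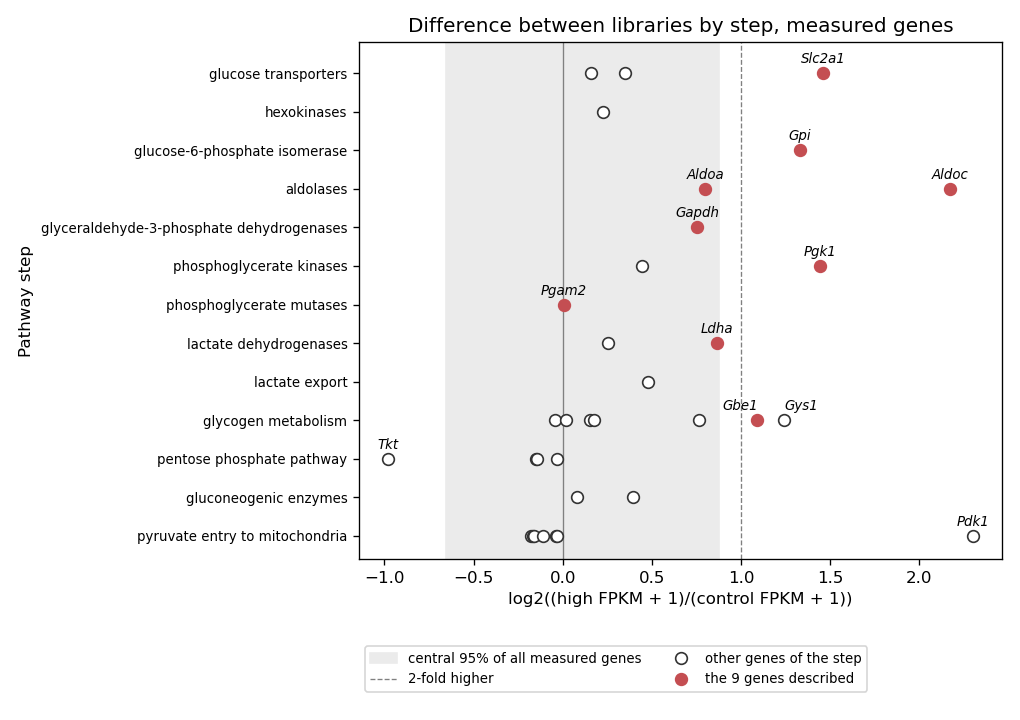
Log2 ratio of high phosphate to control, with 1 added to each FPKM, for every measured gene by pathway step. Filled red points are the 9 genes described, open points the 25 other genes, the grey band the central 95% of all measured genes (-0.65 to 0.88) and the dashed line 2-fold higher. Red points lie to the right of the band at uptake, isomerase, Aldoc, Pgk1 and Gbe1, and the pentose phosphate genes lie at or left of -0.03.

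Gapdh and Pgk1 also serve as reference genes for the normalisation of transcript measurements, and their values were set beside a panel of such genes. Of 20 genes in the panel, 12 were listed and all were measured, with a median log2 ratio of 0.25, or 0.21 over the 10 other genes. Pgk1 with 1.44 and Gapdh with 0.76 were the 2 highest of the 12. The next was B2m, the light chain of MHC class I, with 247 and 365 FPKM and a log2 ratio of 0.56. Ribosomal and translation genes followed: Rpl19 was at 0.31, Rplp0 at 0.28, Eef1a1 at 0.25 and Rpl13a at 0.24. Cytoplasmic actin Actg1 had 1031 and 1162 FPKM (0.17) and the glucuronidase Gusb 43.6 and 49.0 FPKM (0.16). The succinate dehydrogenase subunit Sdha was at -0.08, the RNA polymerase subunit Polr2a at -0.18 and the transferrin receptor Tfrc at -0.56. The FPKM of Gapdh was 67.7% of that of Rplp0 in the control and 94.2% in high phosphate, and 2.13 and 3.19 times that of Actg1.

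**Figure D5:**
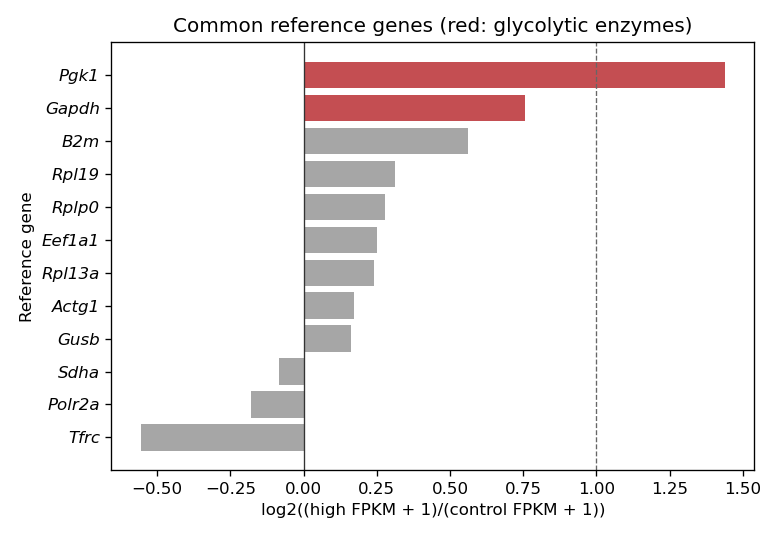
Log2 ratio of high phosphate to control, with 1 added to each FPKM, for the 12 listed genes of the reference panel. Red bars are the glycolytic enzymes Pgk1 and Gapdh, grey bars the 10 other genes, and the dashed line marks 2-fold higher. The grey bars run from -0.56 for Tfrc to 0.56 for B2m, all below the red bars.

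Genes outside the set with a similar difference were found by the closeness of their log2 ratio to the median of the 9, among those with a gene symbol that averaged 100 FPKM or more. Over only 2 libraries this likeness rests on a single difference. The 5 closest were the heme oxygenase Hmox1 with 70.8 and 140 FPKM (log2 ratio 0.98), the endoplasmic reticulum chaperone Hsp90b1 with 0.87, the disulfide isomerase Pdia6 with 0.87, the matrix protein Sparc with 0.86 and the basement membrane collagen Col4a1 with 0.83. These 5 lay below the median of 1.09, at distances of 0.11 to 0.26. In addition, 1 identifier without a symbol lay within that range, above the median, with a log2 ratio of 1.20.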

How the data were processed

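RNA of H9c2 cells was sequenced in 1 library per phosphate level. The deposited values are FPKM per the file headers, rounded to 2 decimals. Per the submitters' processing notes, the build was Rnor_6.0 and the tools included TopHat2 2.1.1, Cuffdiff, Cufflinks 2.2.1 and bcl2fastq. The sources used here do not state the annotation, strand settings, handling of multiply mapped reads or scaling between libraries. Values step by 0.01, so reads could not be recovered and the depth is unknown. Of 8039 entries, 236 without a usable identifier (8.20% and 8.56% of the FPKM) were left out. Symbols came from a RefSeq table (GRCr8), which matched 7746 identifiers.

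Ratios used a pseudocount of 1 and genes that averaged 1 FPKM or more, without a test. Named were the 9 genes, every measured gene of the pathway list and reference panel, and the 5 genes of nearest ratio from 100 FPKM. Genes named below that level, and the motif search, were chosen after values were seen. The members and lists were chosen with earlier results of these data known. Some genes of these lists are not reported here and were left out of the lists' counts and medians. Alternatives covered pseudocount, scaling, filter and threshold. The ratio and rescaling were tested on simulated data. Python 3.11.15, numpy 2.4.6, pandas 2.3.3 and matplotlib 3.10.9 were used.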

Additional observations from a re-analysis of the deposited data

How the results depend on the processing

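The ratios of the 9 genes were recomputed with 2 other pseudocounts and 4 rescalings, and the counts also with 3 other filters and 2 other thresholds. The log2 ratios of Slc2a1, Gpi, Aldoa, Aldoc, Gapdh, Pgk1 and Ldha kept their direction and side of 2-fold in all 6 settings. They ranged from 1.29 to 1.47 for Slc2a1, 1.16 to 1.33 for Gpi, 2.03 to 2.49 for Aldoc, 1.27 to 1.44 for Pgk1, 0.69 to 0.86 for Ldha, 0.63 to 0.80 for Aldoa and 0.58 to 0.76 for Gapdh. Rescaling to the same sum gave 0.93 for Gbe1 and -0.0823 for Pgam2, and turned the median of the other pathway genes from 0.08 to -0.0878 and that of the reference panel to 0.0724. The pathway median was also below 0 at the same sum without the most abundant entries (-0.00543) and from a mean of 5 or 10 FPKM (-0.00565 in each). Pgam2 was also at -0.00577 at the same upper quartile and -0.0383 at the same sum without the most abundant entries. Of the 9 genes, 8 passed 1.5-fold and 1 passed 3-fold, and of the other pathway genes 1 passed 3-fold. The panel without Gapdh and Pgk1, chosen after seeing the data, had a median of 0.21. No paired analysis was possible because each phosphate level has 1 library. Depth is unknown, so the counting error of low values such as those of Pgam2 and Aldoc cannot be given.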

Other observations

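Regulators of the pathway were covered in part. Of the hypoxia-inducible factors and their regulators, 3 of 10 genes were listed and 1 was measured: Vhl, part of the ubiquitin ligase for these factors, at 12.8 and 18.5 FPKM. Epas1, which encodes HIF-2 alpha, was listed at 0.02 and 0.00 FPKM and the prolyl hydroxylase Egln3 at 0.03 and 0.02 FPKM. Hif1a was not analysed here. Of other regulators of glycolysis 4 of 9 were measured, with log2 ratios between -0.46 and 0.43. Txnip, an inhibitor of glucose uptake whose transcript follows glucose supply, was listed at 103 and 139 FPKM. Myc was listed at 32.4 and 42.2 FPKM. Mlx, the partner of the glucose-sensing transcription factors, was at 20.2 and 14.4 FPKM, and Prkaa1, a catalytic subunit of AMP-activated kinase, at 11.0 and 11.1 FPKM. None of the 4 was 2-fold apart.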
